A study of Mus musculus with 25 samples.

Results

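Cytochrome c oxidase is complex IV, the last enzyme of the mitochondrial respiratory chain, and 10 of its nuclear subunit genes are described here across injured and uninjured mouse muscle. The genes are Cox4i1, Cox5a, Cox5b, Cox6a1, Cox6a2, Cox6c, Cox7a1, Cox7a2, Cox8a and Cox8b. They were taken as the probe sets that the array's annotation assigns to exactly 1 of these symbols, which gave 15 probe sets for 10 of the 8251 genes named on the array. Where a gene had several, the one with the highest mean log2 signal over the 25 arrays stands for it. The muscle isoforms Cox6a2, Cox7a1 and Cox8b were set against the ubiquitous isoforms Cox6a1, Cox7a2 and Cox8a.

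Complex IV passes electrons from cytochrome c to oxygen and pumps protons across the inner mitochondrial membrane. Its catalytic core is encoded by mitochondrial DNA, and the nuclear subunits surround that core, stabilise it and adjust its activity. For several nuclear subunits the genome holds a pair of genes, one used in most tissues and one used mainly in heart and skeletal muscle. The muscle forms of subunits 6a, 7a and 8 are found mainly in striated muscle, while the ubiquitous forms are found in most cell types and can be made in fibres too.

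RNA came from the tibialis anterior, a fast muscle at the front of the shin, in female mice of strain C57BL/6J aged 2 to 3 months. Injury was either 150 eccentric contractions in vivo, in which an active muscle is lengthened, or contact for 10 seconds with a steel probe 6 mm across that had been chilled to the temperature of dry ice. Muscles were taken 6 hours, 1 day, 3 days or 7 days afterwards, and these 8 groups held 3 arrays each, or 2 for the contraction group of 1 day and the freeze group of 7 days. The 3 uninjured muscles are the controls of all 8 comparisons, so those comparisons share them and do not test one another. No group carried a transgene or a drug according to the labels, which also do not say whether samples shared a mouse. P-values therefore rest on the spread among these arrays, which may be technical in part.

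Values are array signals on a linear scale, and differences are given as log2 of signal plus 13 units with the standard error (SE), a scale that understates the changes of dim genes. A gene was called at an adjusted p under 0.05 in limma, a linear model fitted across 9506 probe sets. The array labelled freeze at 3 days, sample 436, stood apart from its group. Its log2 signals correlated at 0.800 to 0.802 with the other 2 arrays of that group, samples 450 and 468, and at 0.947 to 0.952 with controls, whose correlations among themselves were 0.938 to 0.957. The sum of 12 macrophage marker signals was 512 on this array, below the 613 to 847 of controls, and 24098 to 24952 on the other 2. The calls of members are given with all 25 arrays in their labelled groups and again without sample 436, which lowers the shared estimate of the spread and so changes p-values in all groups. The fibre genes fixed as markers of the tissue, such as those of the sarcomere and of creatine kinase, gave at least 92.5 units on every array.

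Of the 10 genes, 9 had a probe set that passed the filter on low values and were tested. Cox8a, the ubiquitous form of subunit 8, gave 2.6 to 30.1 units and lay above the 40th percentile of its array on 0 of 25 arrays, so it was not tested. Cox5a, a subunit on the matrix face of the complex, gave 10.3 to 81.1 units and lay above that percentile on 8 of 25. These dim signals carry little information on either gene. The probe sets of Cox6a1, Cox4i1 and Cox6c have the suffix that Affymetrix used for probes shared within a sequence family, so related transcripts or processed pseudogenes could add to their signals, and that of Cox8b the suffix for relaxed probe selection. A level is compared only within a probe set.

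The start regions of these genes differ in base composition and motifs. The RefSeq promoter table (GRCm38.p6) held 7 of the 10 genes, and the 250 bases before the start site are printed, 5′ to 3′ on the gene's strand, for the 4 isoforms that were both measured and listed. Capitals mark matches on either strand to the searched motifs.
Cox6a1: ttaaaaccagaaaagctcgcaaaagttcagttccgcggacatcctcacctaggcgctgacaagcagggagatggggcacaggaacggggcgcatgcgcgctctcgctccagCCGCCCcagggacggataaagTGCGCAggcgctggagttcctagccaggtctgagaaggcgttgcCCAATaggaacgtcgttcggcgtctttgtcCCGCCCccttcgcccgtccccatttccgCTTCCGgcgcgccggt
Cox7a1: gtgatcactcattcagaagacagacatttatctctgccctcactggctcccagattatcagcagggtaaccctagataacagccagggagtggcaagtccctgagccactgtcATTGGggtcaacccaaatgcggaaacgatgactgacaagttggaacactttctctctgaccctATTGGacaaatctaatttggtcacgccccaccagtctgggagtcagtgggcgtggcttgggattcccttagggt
Cox7a2: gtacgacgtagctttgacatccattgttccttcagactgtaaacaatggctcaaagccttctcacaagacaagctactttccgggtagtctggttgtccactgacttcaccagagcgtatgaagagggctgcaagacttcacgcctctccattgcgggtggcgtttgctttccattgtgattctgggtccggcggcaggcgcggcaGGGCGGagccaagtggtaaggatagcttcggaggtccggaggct
Cox8b: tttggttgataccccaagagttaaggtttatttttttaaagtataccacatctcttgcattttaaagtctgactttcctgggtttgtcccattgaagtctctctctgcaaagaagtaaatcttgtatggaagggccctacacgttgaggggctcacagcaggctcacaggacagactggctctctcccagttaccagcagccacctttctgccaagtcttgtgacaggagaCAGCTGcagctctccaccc
The Cox6a1 window lies at chr5:115348959-115349208 on the minus strand, has a GC content of 62.8% and holds 5 matches. They are 1 ETS core (CGGAAG, the letters bound by nuclear respiratory factor 2), 1 short site of nuclear respiratory factor 1 (NRF1, TGCGCA), 2 GC boxes (GGGCGG) and 1 CCAAT box, which appear as their reverse complements where they lie on the other strand. The Cox7a1 window (chr7:30183921-30184170, plus strand, 51.2% GC) holds 2 CCAAT boxes, and the Cox7a2 window (chr9:79759854-79760103, minus strand, 54.8% GC) holds 1 GC box. The Cox8b window (chr7:140900447-140900696, minus strand, 47.2% GC) holds 1 E-box of the kind bound by myogenic factors (CAGCTG), from base -19 to -14 before the start site. Over the 32851 promoters of the table the median GC content was 52.4%, and the share with at least 1 match was 13.6% for the ETS core, 6.43% for the NRF1 site, 32.7% for the GC box, 33.8% for CCAAT and 13% for the E-box. The TATA box (TATAAA, 12.4% of promoters), the MEF2 site (0.508%) and the site of estrogen-related receptors (AAGGTCA, 4.08%) had no match in these 4 windows, which says only that the letters are not there. No matches of different motifs overlapped, and a match is a description of the sequence.

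At 3 days after freeze injury the muscle isoforms were low and the ubiquitous Cox6a1 was high. With all arrays 4 of 9 members were called, 3 lower and 1 higher, where 17.9% of all tested probe sets were called, 8.18% lower and 9.68% higher. Without sample 436 the count was 8 of 9, with 7 lower and 1 higher, against a background of 42.4% called, 20.8% lower and 21.6% higher. Cox5a was the exception, at -0.45 ± 0.32 (SE, adjusted p = 0.272). With all arrays limma gave all 9, Cox5a included, an unadjusted p under 0.05. For Cox5a sample 436 gave 10.3 units, the lowest of the series, and samples 450 and 468 gave 21.8 and 25.4. In whole muscle, fewer fibres and less of a transcript per fibre cannot be told apart.

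Cox6a2 encodes the muscle form of subunit 6a, a small membrane subunit that adjusts the enzyme's activity. Its signals were 14187, 12534 and 10700 units in the 3 controls. After freeze they were 12182, 13193 and 13408 at 6 hours, 11036, 6185 and 9946 at 1 day, and 7265 and 6833 at 7 days. At 3 days after freeze samples 450 and 468 gave 1870 and 1876, and sample 436 gave 15367. The first pair lay below every array of the other groups, and sample 436 above every control. The change at 3 days was -1.71 ± 0.51 with all arrays (adjusted p = 0.0278) and -2.72 ± 0.23 without sample 436 (adjusted p = 4.4e-09), a 6.58-fold fall. After contraction the signals were 14105, 10476 and 16614 at 6 hours, 9118 and 10812 at 1 day, 7009, 7573 and 8076 at 3 days, and 8770, 10467 and 11603 at 7 days. The 3 arrays at 3 days lay below all controls, whereas those at 6 hours overlapped them. Their change was -0.72 ± 0.21 without sample 436 (adjusted p = 0.0157) and not called with it (adjusted p = 0.383). In the order of group means, contraction at 6 hours, freeze at 6 hours and control came first, each overlapping the next, and freeze at 3 days without sample 436 came last, wholly below freeze at 7 days.

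Cox6a1 encodes the form of the same subunit found in most tissues, and it moved the other way. Controls gave 516, 508 and 371 units. Freeze gave 577, 544 and 487 at 6 hours, 924, 654 and 1020 at 1 day, 1799 and 1747 at 3 days in samples 450 and 468 with 571 in sample 436, and 1006 and 1004 at 7 days. Contraction gave 327, 375 and 451 at 6 hours, 507 and 456 at 1 day, 1353, 852 and 984 at 3 days, and 496, 870 and 491 at 7 days. All arrays of freeze at 1, 3 and 7 days and of contraction at 3 days were above all controls, sample 436 by the smallest margin. The rise at 3 days after freeze was 1.38 ± 0.32 with all arrays (adjusted p = 0.0143) and 1.92 ± 0.24 without sample 436 (adjusted p = 7.92e-07), or 3.78-fold. It was 1.16 ± 0.32 at 3 days after contraction (adjusted p = 0.0328), where it alone of the 9 was called with all arrays. That call was lost without sample 435, without sample 467 and without any 1 of the 3 controls.

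Cox7a1 encodes the muscle form of subunit 7a, a small membrane subunit. Its signals were 1565, 2444 and 997 in controls. After freeze they were 1470, 1227 and 1742 at 6 hours, 968, 729 and 1577 at 1 day, and 1182 and 1050 at 7 days, and each of these groups overlapped the controls. At 3 days they were 144 and 128 in samples 450 and 468 and 2120 in sample 436. This was the largest fall among the members without sample 436, at -3.40 ± 0.37 or 10.6-fold (adjusted p = 1.03e-07), against -2.12 ± 0.65 with all arrays (adjusted p = 0.0312). After contraction they were 1599, 1968 and 1836 at 6 hours, 1736 and 1485 at 1 day, 391, 1314 and 872 at 3 days, and 1446, 1189 and 1216 at 7 days. Among the contraction arrays of 3 days sample 435 was far below the other 2, and sample 449 lay within the controls. The change there was -1.02 ± 0.33 without sample 436 (adjusted p = 0.0275) and was not called with it (adjusted p = 0.329).

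Cox7a2, the ubiquitous form of subunit 7a, did not share the rise of Cox6a1. Controls gave 3047, 3262 and 2514 units. Freeze gave 3249, 2880 and 2948 at 6 hours, 2922, 1566 and 2680 at 1 day, 1332 and 1161 at 3 days in samples 450 and 468 with 3557 in sample 436, and 2838 and 3019 at 7 days. Contraction gave 3472, 3314 and 4268 at 6 hours, 2924 and 2328 at 1 day, 1753, 2070 and 2037 at 3 days, and 2951, 3881 and 3257 at 7 days. The low arrays were those of both injuries at 3 days, sample 436 aside, and sample 460 of freeze at 1 day. Without sample 436 the gene fell by 1.22 ± 0.22 at 3 days after freeze (adjusted p = 7.5e-05), and with it the change was -0.72 ± 0.31 (adjusted p = 0.101). At 7 days after freeze the difference from control was 0.00 ± 0.22 without sample 436 (adjusted p = 0.996).

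Cox8b, the muscle form of subunit 8, a small membrane subunit, followed Cox6a2. Its signals were 4746, 4155 and 3174 in controls. After freeze they were 3955, 4164 and 3620 at 6 hours, 2562, 1555 and 2959 at 1 day, 530 and 500 at 3 days in samples 450 and 468 with 5096 in sample 436, and 2403 and 2134 at 7 days. After contraction they were 4251, 4034 and 6340 at 6 hours, 3284 and 2936 at 1 day, 1630, 2016 and 2341 at 3 days, and 3551, 3906 and 4305 at 7 days. All arrays of freeze at 1 and 7 days and of contraction at 3 days lay below all controls. The fall at 3 days after freeze was 7.55-fold without sample 436, at -2.92 ± 0.24 (adjusted p = 2.38e-09), and -1.82 ± 0.53 with all arrays (adjusted p = 0.0255). A second, dimmer probe set for Cox8b gave -2.62 ± 0.30 without sample 436 (adjusted p = 1.96e-07) and -1.58 with all arrays (adjusted p = 0.0418).

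**Figure D1:**
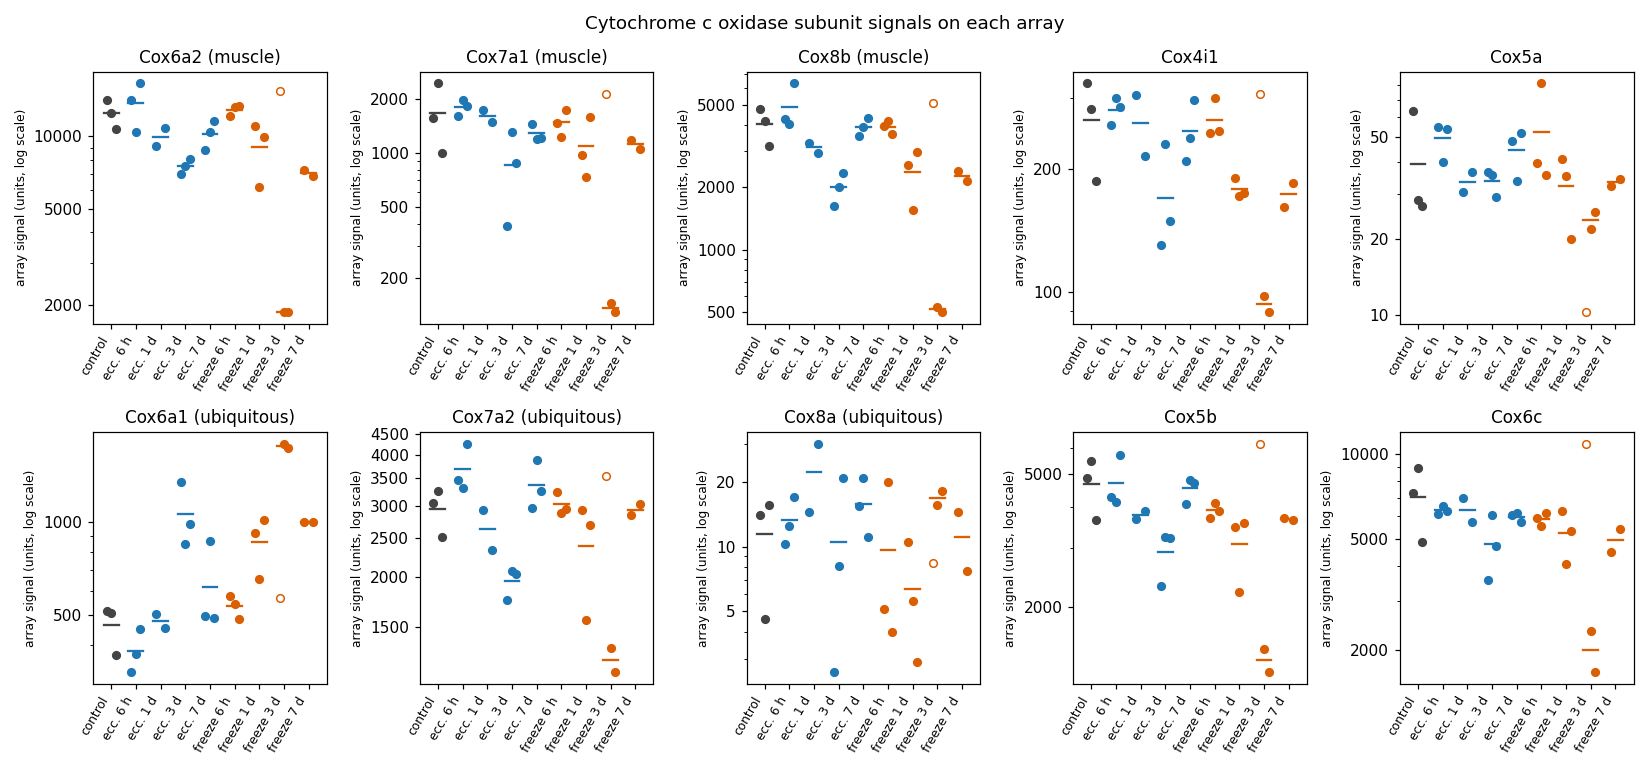
Array signal (log axis, units of the deposited scale) of each of the 10 genes in the 9 groups (ecc., eccentric contraction), 1 point per array, with the group mean as a bar and sample 436 as an open circle left out of the mean. Without that sample, freeze at 3 days has the lowest group mean for Cox6a2, Cox7a1, Cox8b, Cox7a2, Cox4i1, Cox5a, Cox5b and Cox6c. It has the highest for Cox6a1 and neither for Cox8a.

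The subunits without a muscle form were Cox5b, Cox6c, Cox4i1 and Cox5a as represented here. Cox5b, a subunit that binds zinc on the matrix side, gave 4863, 5488 and 3657 units in controls, 1497 and 1277 at 3 days after freeze in samples 450 and 468 and 6180 in sample 436. Cox6c, a membrane subunit, gave 7251, 8934 and 4855 in controls, 2346 and 1663 in the same pair and 10930 in sample 436. Cox4i1, the form of subunit 4 found in most tissues, gave 325, 282 and 187 in controls, 98.1 and 89.5 in that pair and 306 in sample 436. In each of the 3 genes the pair lay below all other arrays of the series. Without sample 436 the falls were 1.73 ± 0.22 for Cox5b (adjusted p = 1.07e-06), 1.78 ± 0.25 for Cox6c (adjusted p = 3.51e-06) and 1.35 ± 0.23 for Cox4i1 (adjusted p = 5.36e-05). With all arrays none of the 3 was called, with adjusted p = 0.068, 0.123 and 0.0683. A second probe set for Cox4i1 gave -0.93 ± 0.39 without sample 436 (adjusted p = 0.0571), and the other 2 probe sets for Cox6c, at 1.4 to 61.6 units, were not called.

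Across the 9 tested members the median change at 3 days after freeze was -0.96 with all arrays and -1.73 without sample 436, where the median of all probe sets was -0.09 and -0.12. Without sample 436 all 9 had groups that did not overlap, 8 lower and 1 higher, as did 32.9% of all probe sets lower and 29.2% higher. The change of each of the 3 muscle isoforms was larger than that of the other 6. Calls with all arrays rested on samples 450 and 468, since 0 members were called without either of them by limma, and 1 without control 1 or control 2. With sample 436 left out, leaving out any further array kept the count at 8.

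**Figure D2:**
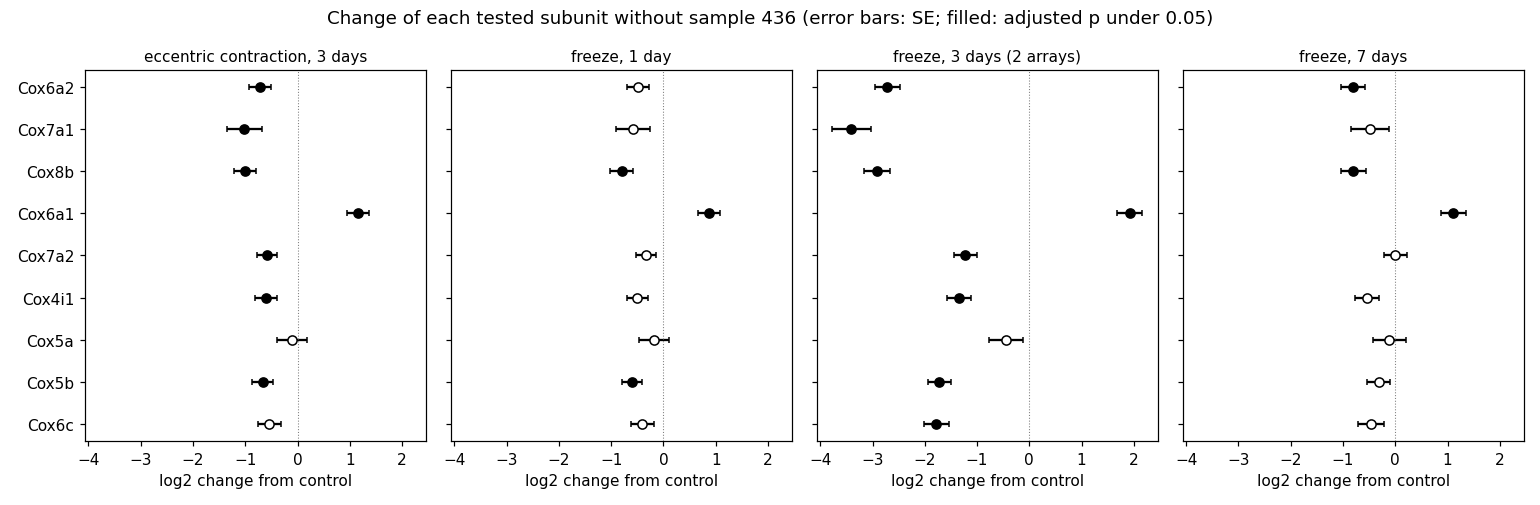
Change of each of the 9 tested members against control at 3 days after contraction and 1, 3 and 7 days after freeze, as log2 of signal plus 13 units, without sample 436. Bars are standard errors from limma, and filled points are called at an adjusted p under 0.05. At 3 days after freeze 7 members lie below 0 and are called, and Cox6a1 lies above 0.

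The isoform balance was followed as the log2 difference of muscle minus ubiquitous form on each array, set to a mean of 0 in controls. It is a description with no test. For subunit 6a the 3 controls lay at 0.03, -0.12 and 0.09. Freeze gave -1.15, -1.50 and -1.44 at 1 day, -4.66 and -4.61 at 3 days in samples 450 and 468, and -1.88 and -1.96 at 7 days, while sample 436 gave 0.01. Contraction gave -2.35, -1.58 and -1.69 at 3 days and -0.61, -1.14 and -0.19 at 7 days. The balance of subunit 6a was thus below the control range in all arrays of freeze at 1 and 7 days and of contraction at 1, 3 and 7 days. In samples 450 and 468 the mean was a 24.8-fold shift, and at 7 days after freeze it was 3.78-fold. At 6 hours the freeze arrays, at -0.34 to 0.03, overlapped the controls, and the contraction arrays ran from 0.05 to 0.66.

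For subunit 7a only samples 450 and 468 made a group wholly below the control range of -0.43 to 0.48, at -2.20 and -2.16, a 4.53-fold shift. Sample 436 lay at 0.15. Contraction at 3 days gave -1.23, 0.25 and -0.31, and freeze at 7 days gave -0.36 and -0.61, so both groups overlapped the controls. The Cox8 balance was -3.14 and -3.34 in samples 450 and 468 and 0.52 in sample 436, and since Cox8a was near background on all arrays this is the change of Cox8b with added noise. Averaged over the 3 pairs, the shift after contraction at the 4 times in order was 0.13 ± 0.08, -0.35 ± 0.07, -1.07 ± 0.35 and -0.47 ± 0.32 (SD; n = 3, 2, 3 and 3). After freeze it was -0.06 ± 0.23, -0.70 ± 0.28, -2.16 ± 2.06 and -1.07 ± 0.02 (SD; n = 3, 3, 3 and 2), and -3.35 ± 0.03 at 3 days without sample 436 (SD, n = 2). The controls varied by 0.30 (SD, n = 3) on this scale. These means include the Cox8 pair, and without it the shift at 1 day after contraction was -0.089, while contraction at 7 days, which otherwise overlapped the controls, lay wholly below them at a mean of -0.56.

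**Figure D3:**
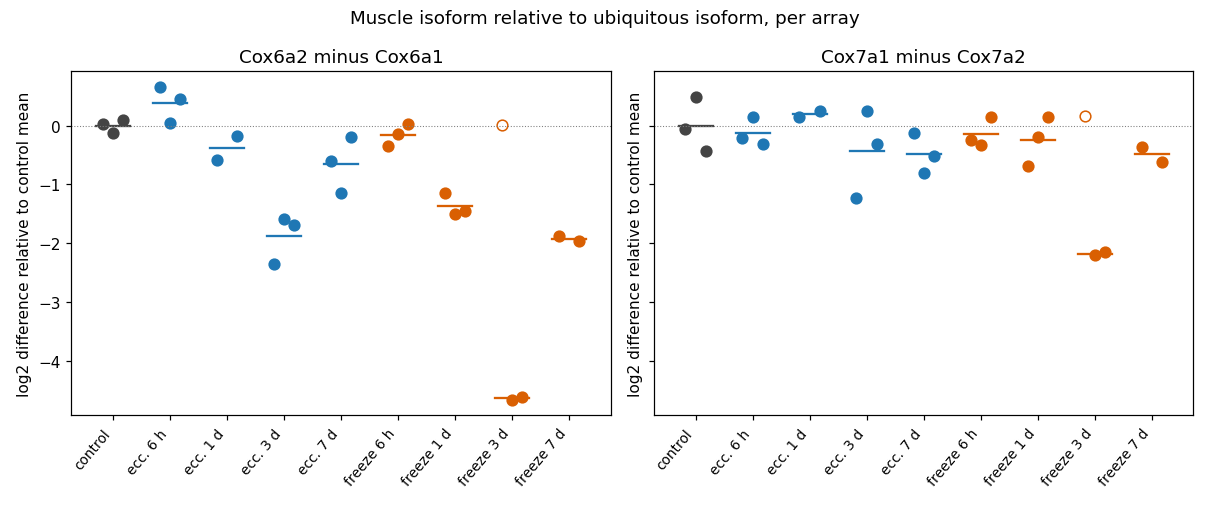
Muscle minus ubiquitous isoform on each array, as a log2 difference relative to the control mean, for the pairs of subunits 6a and 7a in the 9 groups (ecc., eccentric contraction). Sample 436 is an open circle, and bars are group means without it. The 6a pair falls to -4.66 and -4.61 at 3 days after freeze and is still at -1.88 and -1.96 at 7 days, where the 7a pair overlaps the controls.

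Contraction injury gave smaller changes at 3 days. With all arrays 1 of 9 was called, Cox6a1, beside 8.25% of all probe sets, 5.67% higher and 2.58% lower. Without sample 436, which is not in this group, 7 were called, 1 higher and 6 lower, beside 22.8% of probe sets, 13.1% higher and 9.69% lower. Cox8b fell by 1.00 ± 0.22 (adjusted p = 0.00145), Cox5b by 0.67 ± 0.20 (adjusted p = 0.0163), Cox4i1 by 0.61 ± 0.21 (adjusted p = 0.0374) and Cox7a2 by 0.58 ± 0.19 (adjusted p = 0.0325). Cox6c, at -0.54 ± 0.22, was not called (adjusted p = 0.0829). Groups did not overlap for 4 members lower and 1 higher, beside 15.8% and 17% of all probe sets. The median of the 9 was -0.61 against -0.06 for all probe sets. These calls depended on single arrays, with 2 left when sample 435 or control 1 was also left out and 3 when control 2 was.

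At 1 day after freeze no member was called with all arrays, beside 14.2% of probe sets, and limma gave 1 of 9 an unadjusted p under 0.05. Leaving out sample 436, 3 of 9 were called, 1 higher and 2 lower, beside 26.8% of probe sets, 14.8% higher and 12% lower. Cox6a1 rose by 0.87 ± 0.21 (adjusted p = 0.00382), Cox8b fell by 0.80 ± 0.22 (adjusted p = 0.00767) and Cox5b fell by 0.60 ± 0.20 (adjusted p = 0.026). Cox6a2 was at -0.49 ± 0.21 and not called (adjusted p = 0.0847). Leaving out sample 460 as well left 1 call, and leaving out control 3 as well gave 5.

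At 7 days after freeze the members called were the 6a pair and Cox8b, and only without sample 436. With all arrays 0 of 9 were called by limma, beside 5.29% of probe sets, and 1 had an unadjusted p under 0.05. Without sample 436, 3 were called, 1 higher and 2 lower, beside 19.5% of probe sets, 11.7% higher and 7.83% lower. Cox6a1 rose by 1.11 ± 0.24 (adjusted p = 0.00205), and Cox6a2 fell by 0.81 ± 0.23 (adjusted p = 0.0172) and Cox8b by 0.81 ± 0.24 (adjusted p = 0.0212). Cox4i1, at 162 and 186 units, also lay below all controls but was not called, at -0.54 ± 0.23 (adjusted p = 0.106), and 4 members had an unadjusted p under 0.05. Cox7a1 was at -0.48 ± 0.37 (adjusted p = 0.388). Only 1 was called when sample 440, sample 454 or control 1 was also left out, and 5 were when control 3 was.

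In the other groups 0 of 9 members were called by limma with all arrays or without sample 436, and at an unadjusted p under 0.05 there were also 0. These were contraction at 6 hours, 1 day and 7 days and freeze at 6 hours. All probe sets were called at rates of 1.87%, 1.79%, 0.537% and 4.85% in that order with all arrays, and 3.36%, 4.33%, 3.03% and 11.4% without sample 436. At 6 hours after contraction Cox6a2 signals spanned 10476 to 16614 units and at 6 hours after freeze 12182 to 13408, around the controls.

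The injuries were set against each other at each time, a difference that does not involve the control means, although the control arrays enter the shared estimate of the spread. With all arrays 0 of 9 members were called by limma at any of the 4 times, in order beside 0.305%, 1.45%, 0.389% and 0.368% of probe sets, and 0, 1, 0 and 0 had an unadjusted p under 0.05. Without sample 436, freeze was lower than contraction at 3 days for 7 members and higher for 1, beside 8.1% and 8.85% of probe sets, or 16.9% in all. Cox7a1 differed by -2.39 ± 0.37 (adjusted p = 0.000106), Cox6a2 by -2.00 ± 0.23 (adjusted p = 9.39e-06) and Cox8b by -1.91 ± 0.24 (adjusted p = 1.7e-05). Cox6a1 was higher by 0.76 ± 0.24 (adjusted p = 0.0306) and Cox7a2 lower by 0.64 ± 0.22 (adjusted p = 0.0441). In 8 members all freeze arrays lay below all contraction arrays and in 1 above, as for 24.4% and 24% of probe sets. Leaving out sample 468, 450 or 449 as well gave 4, 5 and 5 calls.

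Without sample 436 the other times gave 0, 1 and 1 calls, beside 2.36% of probe sets at 6 hours, 10.1% at 1 day (6.42% higher, 3.72% lower) and 7.27% at 7 days (5.64% higher, 1.63% lower). In the first of these, limma gave 1 member an unadjusted p under 0.05. Cox6a1 was higher after freeze at 1 day by 0.81 (adjusted p = 0.0328), a call lost without sample 421, 463, 422 or 464. Cox8b was lower after freeze at 7 days by 0.78 (adjusted p = 0.0498), a call lost when 17 of the other 24 arrays were left out in turn.

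The rest of the respiratory chain fell as well, by less than the muscle isoforms. Of 63 listed genes of complexes I, II, III and V, 51 were on the array and tested. At 3 days after freeze 47 of the 51 fell and 0 rose without sample 436, at a median of -1.59, and 21 fell with all arrays, at a median of -0.97. The largest falls were Ndufs1 at -2.37 and Ndufa9 at -2.23, both of complex I, so Cox6a2, Cox7a1 and Cox8b changed more than any of the 51. Also without sample 436, of other complex IV subunits 3 of 5 tested fell (1 with all arrays), with Cox7b at -1.75 and Cox6b1 at -0.85, and of assembly genes and cytochrome c 5 of 10 fell (1 with all arrays), with Cycs at -2.05 and Lrpprc, which stabilises mitochondrial messenger RNA, at -1.31. Of factors that drive mitochondrial biogenesis 5 of 8 fell (1 with all arrays), with the nuclear receptor gene Esrra at -2.02 and Tfb2m, a mitochondrial transcription factor gene, at -1.26. Their coactivator gene Ppargc1a was not called at 3 days, at -0.55 (adjusted p = 0.168, and 0.17 with all arrays). At 6 hours after freeze it was at 1.18, called without sample 436 (adjusted p = 0.00669) and not with all arrays (adjusted p = 0.116).

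The same lists moved less in the other groups. After contraction at 3 days 35 of the 51 chain genes fell without sample 436 and 3 with all arrays, at a median of -0.74, led by Ndufs1 (-1.46) and Uqcrc1 (-1.26, complex III). At 1 day after freeze 28 and 2 fell, at a median of -0.61. At 7 days after freeze 9 and 0 fell, at a median of -0.36. In freeze against contraction at 3 days 36 of 51 were lower without sample 436, at a median of -0.81. Esrra was at -1.15 in contraction at 3 days, -1.38 in freeze at 1 day and -1.42 in freeze at 7 days. It was called each time, both with all arrays and without sample 436.

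**Figure D4:**
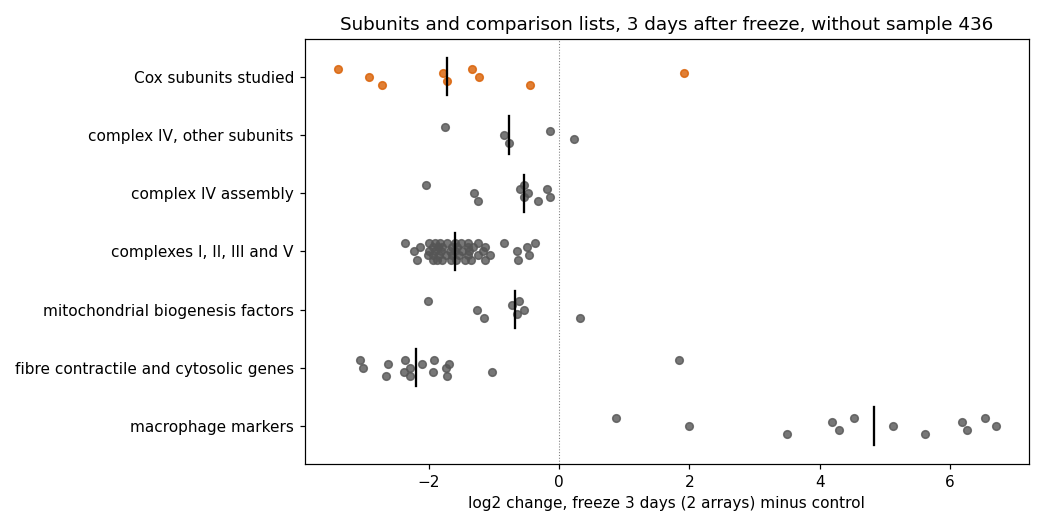
Change at 3 days after freeze against control, without sample 436, as log2 of signal plus 13 units, 1 point per tested gene of each list, with the list median as a bar. The members range from -3.40 for Cox7a1 to 1.92 for Cox6a1, and the 51 genes of complexes I, II, III and V have a median of -1.59.

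Markers of the cells in the tissue moved with these changes. Of 16 fibre genes outside the mitochondrion 15 fell and 1 rose at 3 days after freeze without sample 436, at a median of -2.20, with Pygm, glycogen phosphorylase, at -3.05, Ckm, creatine kinase, at -3.02 and Tpm1 at 1.85. With all arrays 7 fell and 1 rose. Their summed signal was 44765 to 56320 there against 162721 to 259564 in controls and 264073 in sample 436. It was 101584 to 131388 in contraction at 3 days, 100305 to 159970 in freeze at 1 day and 129001 to 134105 in freeze at 7 days. Fibre genes and muscle isoforms were thus low on the same arrays, and their part in the result was not tested.

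All 12 macrophage markers rose at 3 days after freeze without sample 436, at a median of 4.83, led by Tyrobp at 6.70 and Lgals3 at 6.55, and 10 rose with it. Their summed signal of 24098 to 24952 in that group compared with 9168 to 12897 in contraction at 3 days, 6973 to 9346 in freeze at 1 day, 6841 to 7370 in freeze at 7 days, 1721 to 2894 in contraction at 7 days and 613 to 847 in controls. No marker was at 0 on any array, and Cd53 had the lowest value at 1.8 units. Sample 436 aside, the 4 groups in which Cox6a1 lay wholly above the controls were those with the highest sums, and the part of these cells in its rise was not tested. Of 7 fibroblast markers 5 rose without sample 436 and 0 with it, led by the collagen genes Col3a1 at 3.00 and Col1a2 at 2.82, with a sum of 11848 to 13959 against 2783 to 5018 in controls and 21186 to 21532 in freeze at 7 days. Of 6 markers of satellite cells and myoblasts 4 rose and 1 fell without sample 436, and 3 rose and 0 fell with it. Among them the embryonic myosin gene Myh3 was at 4.62, Myog at 3.80 and Des at -0.62. Of 5 endothelial genes 2 fell without sample 436, Tie1 at -1.31 and Cdh5 at -0.67, and 1 with it.

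Some neutrophil markers moved at the earlier times after freeze. With all arrays 2 of 5 tested rose and 0 fell by limma at 6 hours and at 1 day, while the list medians were -0.54 and -0.66. The 2 were S100a8 and S100a9, which rose by 5.47 and 5.52 at 6 hours, where 0 members were called. At 1 day they rose by 5.24 and 4.71, and Mpo was at -1.28, called without sample 436 (limma adjusted p = 0.0266). The summed signal of the 7 markers was 2691 to 4338 at 6 hours and 1856 to 3297 at 1 day after freeze, against 444.5 to 806 in controls, and its part in the 1-day changes of Cox6a1, Cox8b and Cox5b was not tested. At 3 days 1 of 5 tested fell without sample 436 (Mpo at -1.20) and 0 changed with all arrays. Of 2 adipocyte genes 0 changed at 3 days after freeze either way by limma.

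Actin control probes for both ends of the transcript gave a 3′ over 5′ ratio of 0.560 to 0.595 in control muscle. This ratio was 1.06 to 1.09 in samples 450 and 468, 0.741 in sample 436, 0.923 to 1.21 in contraction at 3 days, 1.01 to 1.31 in freeze at 1 day and 0.776 to 0.808 in freeze at 7 days. The ratio of the Gapdh probes was 0.869 to 1.13 in controls and 0.878 to 0.902 in samples 450 and 468. Its part in the results was not tested.

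Some genes followed the members closely over the 25 arrays, given as Pearson correlations of log2 values with no test. The arrays share their groups, so these values describe the series. The mean of the muscle isoforms was followed most closely by Chchd10 (0.979), a gene of the mitochondrial intermembrane space, Acyp2 (0.975), Ndufa3 (0.966) and Uqcrb (0.964) of complexes I and III, and Nipsnap2 (0.959). Over the 22 arrays without freeze at 3 days these were 0.963, 0.920, 0.928, 0.912 and 0.888. The mean of the ubiquitous isoforms, which joins genes that moved in different ways, had lower values, with Rpl19 (0.691), Timm13 (0.676), Pgls (0.670), Lsm7 (0.662) and Nrbp2 (0.659) first. That mean includes Cox8a, near background at 2.6 to 30.1 units, which correlated at -0.076 with Cox6a1 and -0.027 with Cox7a2.

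Taking the ubiquitous forms singly was chosen after these values were seen. Cox6a1 was followed most closely by Akr1a1 (0.943), Cd300c2 (0.943), H2-DMa (0.939), Ccl8 (0.937) and Erp29 (0.934), among which H2-DMa is a gene of antigen presentation and Ccl8 a chemokine gene. Cox7a2 was followed by Atp5l (0.979), Atp5md (0.969), Uqcr10 (0.959), Ndufb6 (0.959) and Atp5o (0.958), all genes of the respiratory chain or of ATP synthase. Cox6a2 and Cox8b correlated at 0.971, while Cox6a1 and Cox6a2 correlated at -0.779, and at -0.643 without the arrays of freeze at 3 days.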

How the data were processed

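Total RNA of 25 tibialis anterior muscles was measured on Affymetrix U74Av2 arrays, 1 array per sample. The authors deposited 1 linear intensity per probe set and array, made with MAS5 per the submitters' processing notes. Its version is not given in the sources used here. With 2% trimmed at each end, array means were 150.09 to 150.13, so changes are relative to the bulk of the array. Arrays have no read depth, and the 2 or 3 per group limit the precision.

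Of 12488 probe sets, 66 were controls. Genes were named from the platform annotation, with symbols updated through a RefSeq gene table, and only probe sets with 1 symbol were named. Probe sets above their array's 40th percentile on at least 2 arrays were tested, 9506 in all. Values were taken as log2 of signal plus 13 units. One linear model with 9 group means was fitted in limma 3.58.1 (R 4.3.3, eBayes with trend, 16 residual and 5.46 prior degrees of freedom, or 15 and 7.43 without sample 436). Within each of 12 comparisons, two-sided p-values received the Benjamini-Hochberg adjustment. On simulated data for freeze at 1 day against control over 9506 probe sets, 30 of 100 planted changes of log2 size 1 and 85 of 100 of size 2 were recovered. The simulated noise was normal, with the spread of each probe set taken from all arrays, sample 436 included. Recovery in fits without that sample was not simulated. The members and lists were chosen with earlier results of these data known. All 10 members were named, and genes of other lists were taken from the called ones, up to 2 per direction and comparison by size of change. Ppargc1a, in its uncalled values, and Cd53, for its lowest signal, were chosen after their values were seen. Genes most like the members were the 5 of highest Pearson correlation. Alternatives were other pseudocounts, normalizations, filters, models, thresholds and omitted arrays. No genomic position of a probe set is given, since no build is named for the array.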

Additional observations from a re-analysis of the deposited data

Results flagged for a closer look

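All 10 differences between freeze and contraction that met the rule of a tested difference did so without sample 436 only, by limma over all probe sets, and with all arrays 0 were called. At 3 days freeze was lower for Cox7a1 (-2.39, adjusted p = 0.000106), Cox6a2 (-2.00, adjusted p = 9.39e-06), Cox8b (-1.91, adjusted p = 1.7e-05), Cox6c (-1.24, adjusted p = 0.00121), Cox5b (-1.06, adjusted p = 0.00164), Cox4i1 (-0.74, adjusted p = 0.0289) and Cox7a2 (-0.64, adjusted p = 0.0441). It was higher for Cox6a1 (0.76, adjusted p = 0.0306). Cox6a1 was also higher after freeze at 1 day (0.81, adjusted p = 0.0328), and Cox8b was lower after freeze at 7 days (-0.78, adjusted p = 0.0498). The groups have at most 3 arrays, so no array was tested as an outlier within its group.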

How the results depend on the processing

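The 108 changes of single members in 12 comparisons were recomputed under 3996 combinations of member and setting. Of these, 3885 either kept a call and its direction, or stayed uncalled and moved by less than their SE. A further 23 uncalled values moved by more than their SE, 29 lost the call and 59 gained one (26 of them by leaving out sample 436 alone). Among values called under either setting 0 reversed, and the direction of values uncalled under both was not compared. The 3885 are not a measure of stability, because many settings could not move a difference. Leaving out an array outside the compared groups is such a setting, as is another filter or threshold. Most values were also uncalled at the outset, since the main fit called only 1 member in contraction at 3 days and 4 in freeze at 3 days. With all arrays the members called changed with array weights to 4 in contraction at 3 days, 4 in freeze at 1 day, 8 in freeze at 3 days and 4 in freeze at 7 days, and to 1, 8 and 2 in freeze against contraction at 1, 3 and 7 days. In fits of the compared groups alone they were 2 in contraction at 3 days, 1, 0 and 1 in freeze at 1, 3 and 7 days, and 1 and 1 in freeze against contraction at 1 and 7 days. At an adjusted p under 0.01 they were 0 in contraction and 0 in freeze at 3 days. Without sample 436 they were at that threshold 2 in contraction at 3 days, 1 in freeze at 7 days, and 0, 5 and 0 in freeze against contraction at 1, 3 and 7 days. The single call in freeze against contraction at 1 day was 0 after centring on the array median. The one at 7 days was 0 with a pseudocount of 1, after centring and with adjacent sample numbers as a random block, and 2 after quantile normalization. The causes were not tested. The share of all probe sets called is not given for these settings, nor for omitted arrays other than sample 436. These counts therefore do not separate a change in the members from a general change in calls. Leaving out sample 436 alone moved that share from 17.9% to 42.4% at 3 days after freeze.

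Leaving out 1 array at a time gave 0 to 7 calls in contraction at 3 days, 0 to 3, 0 to 8 and 0 to 3 in freeze at 1, 3 and 7 days, and 0 to 1, 0 to 8 and 0 to 1 in freeze against contraction at 1, 3 and 7 days. With sample 436 out as well the ranges were 2 to 8, 1 to 5, 8 to 8 and 1 to 5, and 0 to 1, 4 to 8 and 0 to 2. A group reduced to 1 array was taken to vary like the others. The isoform shift averaged over 3 pairs ranged from -0.022 to 0.28, -0.51 to -0.21, -1.25 to -0.90 and -0.62 to -0.29 in contraction at 6 hours, 1, 3 and 7 days, and from -0.21 to 0.09, -0.85 to -0.55, -3.35 to -1.55 and -1.22 to -0.93 in freeze. At 1 day after contraction that shift was -0.50 with a pseudocount of 1, -0.25 with 50 and -0.089 with the Cox6a and Cox7a pairs alone. At 7 days after freeze it was -1.10, -1.04 and -1.20 under the same settings and -0.95 after quantile normalization. Leaving out each array, sample 436 included, was planned, while combining its omission with other settings and using the 2 pairs alone were chosen after seeing the data. The labels give the groups no shared replicate numbers. Many freeze arrays carry the number next after a contraction array of the same time, such as 418 after 417 at 6 hours. The labels do not say what this means, and the main fit of freeze against contraction was unpaired. Adjacent sample numbers as a random block (correlation -0.094) left the count of members called as it was in all 12 comparisons with all arrays, and changed 1 of 12 without sample 436, the one at 7 days above. Signals near background limit what can be said of Cox8a and Cox5a.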
